A study of Mus musculus with 34 samples.

Results

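The 81 genes described here are the protein-coding potassium channel genes whose symbol begins with Kcn in GENCODE M21, Kcnj13 excepted, that have a row in the deposited table of 18548 genes. GENCODE M21 holds 93 such genes, and the other 12 were not analysed here. The genes were chosen by name, with no measured value. RNA was sequenced from 3 regions of the brain of male C57BL/6J mice at postnatal day 56: prefrontal cortex (PFC), hippocampus and striatum. In each region, libraries labelled Myt1l heterozygote (HT) stood beside wild-type (WT) libraries: 5 HT and 6 WT in PFC, 5 and 6 in hippocampus, and 6 and 6 in striatum. No animal was treated. The labels describe neither the Myt1l allele nor whether each library came from an animal of its own, so that p-values measure the spread between libraries, which may be technical. The Myt1l protein is a DNA-binding zinc finger regulator found in neurons.

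Potassium channels let potassium leave the cell, which sets the resting potential and ends action potentials. Voltage-gated alpha subunits open on depolarisation, and silent alpha subunits conduct when they join other alpha subunits. Calcium- and sodium-activated channels open when those ions enter, inward rectifiers and two-pore channels carry current near rest, and auxiliary subunits change the gating or the transport of the channels they bind. Neurons of the neocortex, the hippocampus and the striatum are known to fire differently and to use different sets of these subunits. In bulk samples like these, fewer cells of a type and less RNA per cell cannot be told apart.

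The values are read counts that the authors divided by a scaling factor, called normalized counts here. They summed to between 25786041 and 29798959 per library. Most marker genes followed the region labels in WT libraries: 10 of 10 genes of striatal projection neurons were higher in striatum than in PFC, and 8 of 10 hippocampal genes were higher in hippocampus than in PFC. Myt1l itself was not lower in HT libraries, at 6820 ± 456 (SD, n = 5) in HT and 6650 ± 842 (SD, n = 6) in WT libraries of PFC, 6896 ± 385 and 6216 ± 594 in hippocampus, and 8162 ± 954 and 7675 ± 552 in striatum, so the libraries are called HT and WT by their labels alone. The column names of the table carry 12 codes, 10 of them in 3 regions and 2 in 2, and what a code stands for is not stated. The code 31-67M is carried by a WT library of PFC and by HT libraries of hippocampus and striatum, and the labels were followed. In 5 striatal libraries (HT replicates 1 and 2, WT replicates 1, 4 and 5), 8 marker genes of cortical excitatory neurons summed to 12959 to 17455, against 5571 to 8114 in the other 7 and 53053 to 56567 in the WT libraries of PFC. The same sum was 43387 to 45337 in the WT libraries of hippocampus, so it is not particular to cortex. The strand used for counting is not given in the sources used here. Exons of 25 of the 81 genes overlap exons of another gene, and reads from the shared bases may not be told apart. The overlaps include Kcnk4 with Catsperz over 572 bases, Kcnh7 with Gca over 696, Kcna6 with Gm26673 over 2355, Kcnmb4 with Kcnmb4os2 over 693, Kcnj3 with Gm26794 over 1080 and Kcnma1 with 4930519K11Rik over 1016.

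The 250 bases before the start sites of 4 genes are shown because these genes had large regional differences in opposite directions. Kcnk4 (chr19:6934516-6934765) and Kcnh7 (chr2:63184288-63184537) were highest in PFC and lowest in striatum, while Kcnj5 (chr9:32344345-32344594) and Kcna5 (chr6:126535556-126535805) were highest in striatum. The sequences are RefSeq's, build GRCm38.p6, each read 5′ to 3′ on the minus strand that carries the gene, with the GC box GGGCGG or its reverse complement CCGCCC in capitals.
Kcnk4: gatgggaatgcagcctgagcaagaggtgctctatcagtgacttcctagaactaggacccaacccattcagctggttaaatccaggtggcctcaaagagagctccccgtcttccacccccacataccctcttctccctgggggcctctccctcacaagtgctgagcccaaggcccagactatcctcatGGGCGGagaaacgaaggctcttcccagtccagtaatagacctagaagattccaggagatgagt
Kcnh7: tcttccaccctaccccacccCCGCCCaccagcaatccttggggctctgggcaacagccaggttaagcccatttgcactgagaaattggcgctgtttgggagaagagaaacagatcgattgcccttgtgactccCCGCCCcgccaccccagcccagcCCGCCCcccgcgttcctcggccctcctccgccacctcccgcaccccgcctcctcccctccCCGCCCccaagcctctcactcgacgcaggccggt
Kcnj5: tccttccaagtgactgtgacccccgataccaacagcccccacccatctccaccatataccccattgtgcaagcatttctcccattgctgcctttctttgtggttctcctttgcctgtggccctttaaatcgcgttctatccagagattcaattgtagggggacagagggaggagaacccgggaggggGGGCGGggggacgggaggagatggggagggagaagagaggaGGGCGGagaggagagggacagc
Kcna5: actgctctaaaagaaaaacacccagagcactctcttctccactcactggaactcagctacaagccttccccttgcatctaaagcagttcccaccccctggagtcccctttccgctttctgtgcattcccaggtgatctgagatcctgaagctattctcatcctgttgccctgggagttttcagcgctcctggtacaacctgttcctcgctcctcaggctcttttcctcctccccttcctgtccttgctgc

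The GC box, a short motif bound by SP1, stood 1 time before Kcnk4, 4 times before Kcnh7, 2 times before Kcnj5 and 0 times before Kcna5. RefSeq's start site lay 0 bases from the 5′ end of the GENCODE gene for Kcnk4 and Kcnh7, 6 bases for Kcnj5 and 143 bases for Kcna5. Over the 58 genes with a promoter in the RefSeq table, 51.7% held a GC box on either strand, against 57.3% of 11941 protein-coding promoters of the same length. The MYT1 family core AAGTTT, searched on both strands, was in the windows of Kcnj16 and Kcnn1, which is 3.4% of the 58 against 10% of all. The TATA box TATAAA was in 1.7% against 6.8%, and the cyclic AMP response element TGACGTCA in 0% against 2.6%. A match is a run of letters only.

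In WT mice most potassium channel genes were called between regions, and PFC held the higher level for the larger share of them. Differences are given as log2 of the first region over the second, from limma on log2(normalized count + 1), where 1 is 2-fold. A gene is called, and said to be higher or lower, at an adjusted p under 0.05 over all genes tested. Of the 80 genes tested, 64 were called between PFC and hippocampus, 46 higher and 18 lower in PFC, where 46.3% of all genes tested were called (22.7% higher, 23.6% lower). Between PFC and striatum 64 were called, again 46 higher and 18 lower in PFC, where 56.6% of all genes were called (27.7% higher, 29% lower). Between hippocampus and striatum 57 were called, 31 higher and 26 lower in hippocampus, where 47.5% of all genes were called (23.6% higher, 23.9% lower).

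The median difference of the 80 genes was 0.30 for PFC over hippocampus, 0.39 for PFC over striatum and 0.07 for hippocampus over striatum, while the median of all genes was -0.01 in each. At 2-fold or more, 18 genes were called between PFC and hippocampus (16 higher and 2 lower in PFC), against 9.11% of all genes (4.17% higher, 4.95% lower). Between PFC and striatum 27 were (18 higher, 9 lower), against 13.4% of all genes (5.37% higher, 8.02% lower), and between hippocampus and striatum 22 were (8 higher, 14 lower), against 10.8% (4.71% higher, 6.06% lower). The 6 WT libraries of one region did not overlap those of the other for 49, 57 and 45 of the 80 genes in the same order, against 29.0%, 35.8% and 29.8% of all genes. With every library scaled to the same total, the median of all genes moved by -0.09, -0.14 and -0.05, and 62, 63 and 58 potassium channel genes were called. These counts take both directions together, so they do not show how many genes stayed higher in PFC. PFC had the highest WT mean of the 3 regions for 42 of the 80 genes (52.5%, against 34.4% of all genes) and striatum the lowest for 41 (51.2%, against 35.1%). Summed over the genes per kilobase of exon, the normalized counts were 27845 ± 701 (SD, n = 6) in PFC, 22895 ± 310 in hippocampus and 20532 ± 1254 in striatum.

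The HT libraries, which share no library with the WT ones, gave 57, 62 and 53 of 79 genes called in the same order of comparisons, where 42.6%, 54.9% and 45.3% of all genes were called. Every gene called in WT had the same direction in HT (64 of 64, 64 of 64 and 57 of 57), and 54, 61 and 53 of them were called there too. The genes called at 2-fold or more in WT were all called in HT (18, 27 and 22). The 3 comparisons of a genotype share their regions' libraries. In WT, 10 genes were called in none of them: Kcnd1, Kcne4, Kcng3, Kcnj14, Kcnj8, Kcnk5, Kcnmb2, Kcnq1, Kcnrg and Kcns2. Kcnn4, at 1.94 to 25.8 in PFC, 0 to 11 in hippocampus and 3.57 to 9.48 in striatum, was below the mean of 10 needed for a test.

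**Figure D1:**
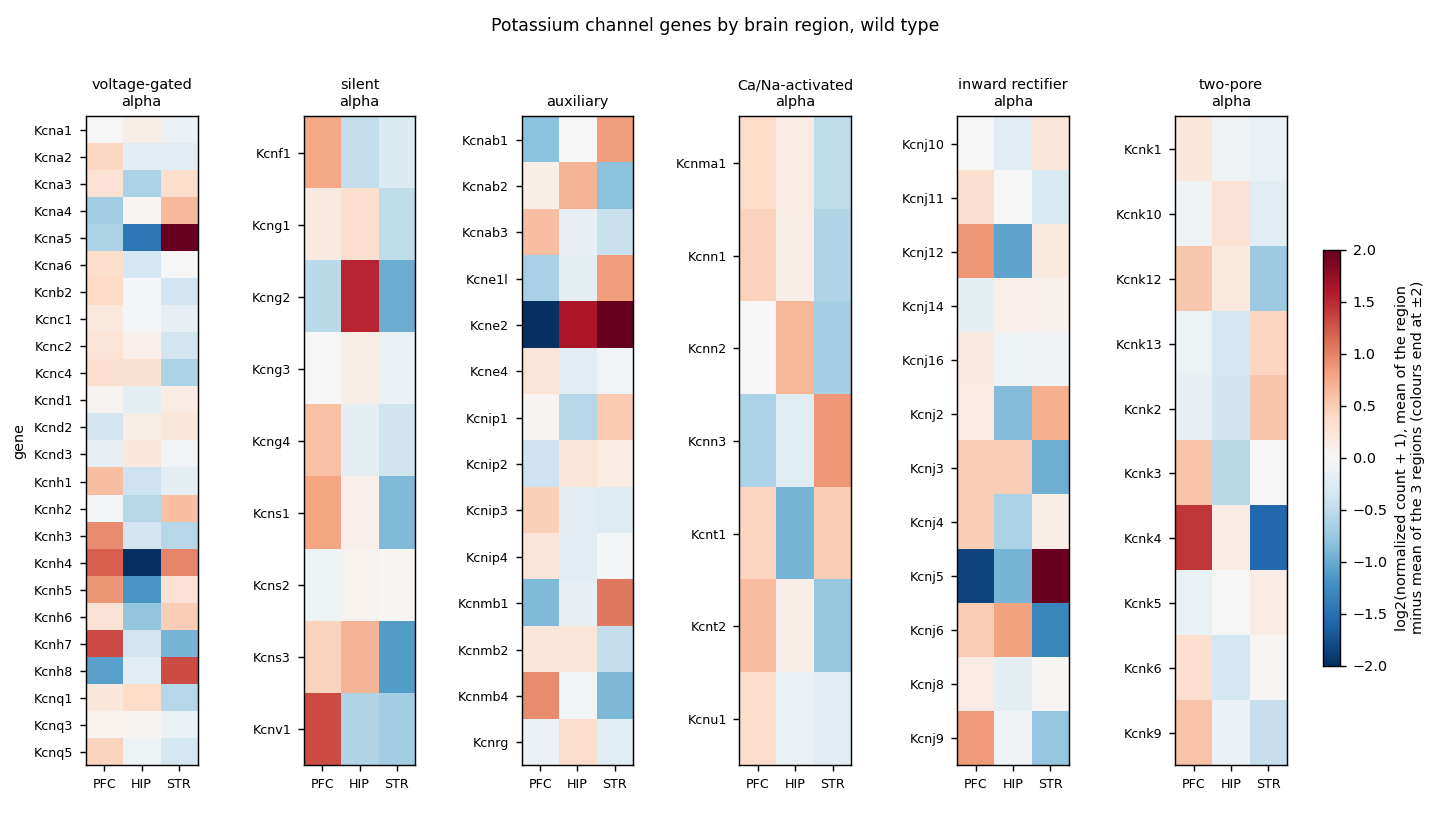
Regional levels of the potassium channel genes in WT mice: each row is a gene described here, in panels by class, and each column a region. Colour is the region's mean of log2(normalized count + 1) minus the mean of the 3 regions, and colours end at 2 either way. Kcnh4 is low in hippocampus (3.37 for PFC over hippocampus) and Kcnj5 and Kcna5 are high in striatum.

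Among the voltage-gated alpha subunits, the EAG, ERG and ELK genes (Kcnh), which open slowly near rest or shape repolarisation, differed by region in more than one way. Of the 8 genes, 7 were higher in PFC than in hippocampus, 6 of them 2-fold or more, and 1 was lower. Against striatum 4 were higher in PFC (Kcnh1, Kcnh3, Kcnh5 and Kcnh7), 2 were lower (Kcnh2 and Kcnh8) and 2 did not pass (Kcnh4 and Kcnh6). Of all genes tested, 22.7% were higher in PFC than in hippocampus (4.17% at 2-fold or more) and 23.6% lower. Against striatum 27.7% were higher in PFC and 29% lower. Kcnh4, an ELK subunit (chr11:100740376-100759942), was at 788, 871 and 905 normalized counts in WT PFC (lowest, median and highest of 6 libraries), 62.4, 86 and 96.8 in hippocampus and 598, 726 and 892 in striatum. The hippocampal libraries lay far below the others with no overlap, and PFC and striatum overlapped. The difference was 3.37 (SE 0.11, adjusted p = 3.89e-16) for PFC over hippocampus, -3.15 (SE 0.11, adjusted p = 5.41e-16) for hippocampus over striatum, and 0.22 (95% interval -0.01 to 0.46) for PFC over striatum, which did not pass. In HT libraries the same gap stood, with PFC at 820 to 1113, hippocampus at 63.6 to 172 and striatum at 619 to 962.

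Kcnh7, the ERG channel subunit ERG3 (chr2:62693414-63184287), was at 6085, 6629 and 7735 in PFC, 1890, 2063 and 2448 in hippocampus and 1003, 1470 and 2162 in striatum. PFC stood above both other regions in every library, and hippocampus and striatum overlapped. The difference was 1.70 (SE 0.16) for PFC over hippocampus, 2.25 (SE 0.16) over striatum and 0.54 (SE 0.16, adjusted p = 0.008) for hippocampus over striatum. Kcnh5, an EAG subunit, was at 458 to 688 in PFC, 111 to 158 in hippocampus and 301 to 423 in striatum, again lowest in hippocampus (2.04 and -1.45) with no overlap. Kcnh3 was 1.33 and 1.52 higher in PFC than in hippocampus and striatum, and Kcnh1 was 1.02 and 0.80 higher. Kcnh2, the ERG subunit known from the heart, had another order, at 881 to 1451 in striatum, 648 to 927 in PFC and 360 to 666 in hippocampus. Kcnh8 was low everywhere and highest in striatum, at 46 to 71.5 against 6.88 to 13.8 in PFC and 12.6 to 33.1 in hippocampus.

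The Kv1 (Shaker) genes, which hold back repetitive firing at low threshold, differed among themselves. Kcna5 (chr6:126532551-126535412), an alpha subunit known for its current in the heart, was at 614, 655 and 731 in striatum, 62.1, 103 and 155 in PFC and 37.9, 57.7 and 71.5 in hippocampus. The striatal libraries stood alone at the top, while PFC and hippocampus overlapped. The difference was -2.73 (SE 0.17, adjusted p = 8.94e-12) for PFC over striatum and -3.53 (SE 0.17, adjusted p = 1.15e-13) for hippocampus over striatum, an 11.6-fold gap. Kcna4, an A-type subunit, was likewise highest in striatum, at 307 to 476 in PFC, 570 to 765 in hippocampus and 920 to 1032 in striatum, and these ranges did not overlap. Kcna2, an axonal subunit with the highest count of the subfamily, was 0.62 (SE 0.05) higher in PFC than in hippocampus and 0.63 (SE 0.05) higher than in striatum. Kcna3 was lowest in hippocampus, at 78.5 to 113 against 170 to 234 in PFC and 190 to 223 in striatum, and Kcna6 was 0.70 and 0.35 higher in PFC. Kcna1 passed only for hippocampus over striatum, by 0.24 (SE 0.09). Of the subfamily's per-kilobase sum, Kcna5 made up 12.4% ± 0.895 (SD, n = 6) in striatum, 1.82% ± 0.578 in PFC and 1.32% ± 0.297 in hippocampus.

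Kcnc1, Kcnc2 and Kcnc4, fast repolarising subunits of the Kv3 (Shaw) subfamily, were higher in PFC and in hippocampus than in striatum. Kcnc4 was at 1698 to 1878 in PFC, 1609 to 2001 in hippocampus and 801 to 1027 in striatum, so that striatum lay below both and the other two overlapped. Its difference was 0.95 for PFC over striatum and 0.93 for hippocampus over striatum. Kcnc2 was at 3066 to 3237, 2678 to 2952 and 1731 to 2642 in the same order of regions, with no overlap, and Kcnc1 was 0.37 and 0.14 higher in PFC and in hippocampus than in striatum. Kcnb2, a delayed rectifier, was 0.41 and 0.77 higher in PFC than in hippocampus and striatum.

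Of the Kv4 (Shal) genes, which carry the dendritic A-type current, none was higher in PFC. Kcnd2 was at 2172, 2340 and 2565 in PFC, 3113, 3258 and 3575 in hippocampus and 3335, 3531 and 3714 in striatum, so that PFC lay below both and the other two overlapped. Kcnd3 was lower in PFC than in hippocampus by 0.37 (log2 difference -0.37, SE 0.04) and Kcnd1 did not pass. Kcnd3 was also lower in striatum than in hippocampus (0.27, SE 0.04 for hippocampus over striatum), the direction of the Kv3 genes. For PFC over striatum its difference was -0.10 (SE 0.04). Kcnq3, an M-current subunit, was at 7680 to 9182 in PFC, 7774 to 8833 in hippocampus and 6165 to 8090 in striatum. It was lower in striatum than in PFC (0.21 for PFC over striatum) and in hippocampus (0.20 for hippocampus over striatum), with overlapping libraries.

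**Figure D2:**
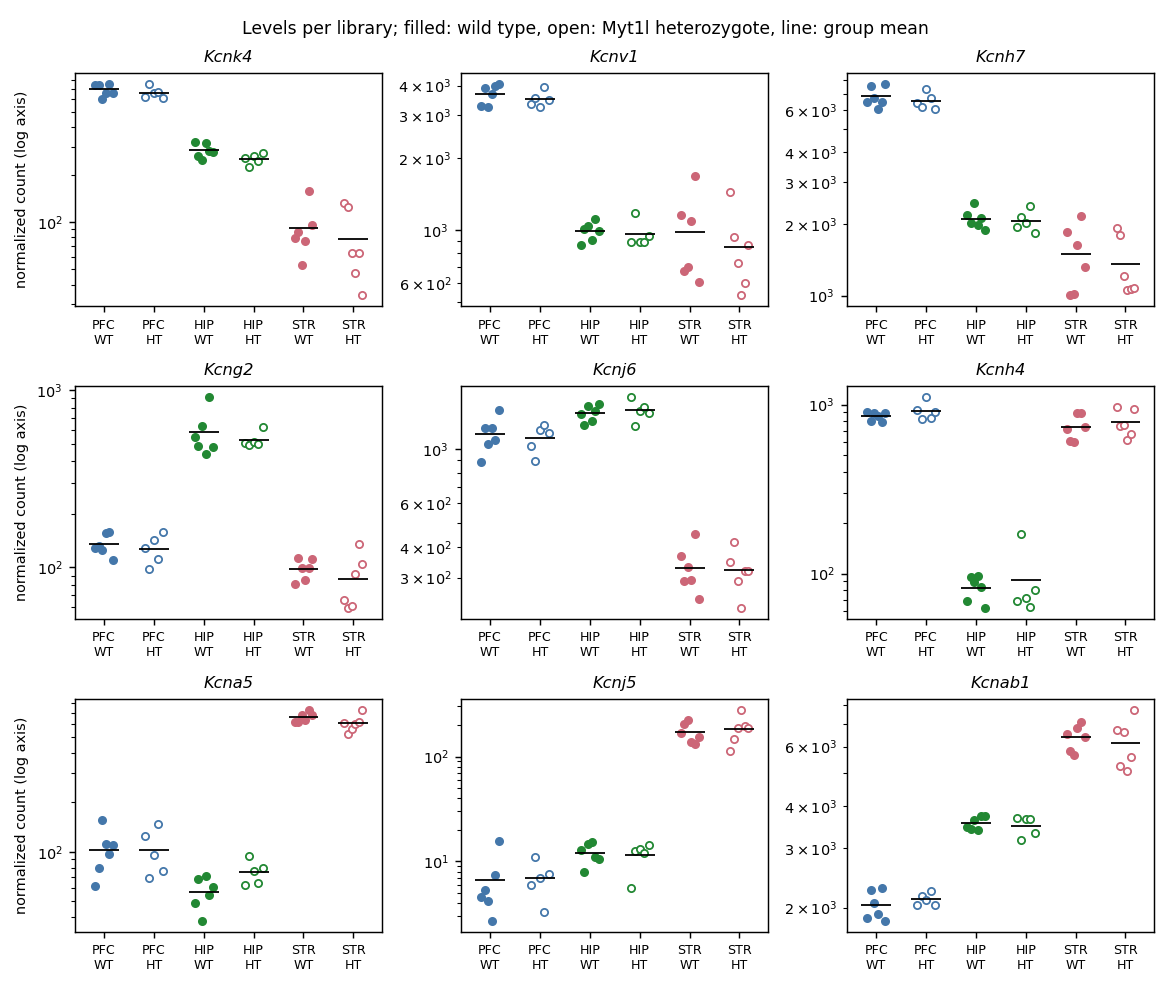
Normalized counts of 9 genes with large regional differences, 1 point per library on a log axis (filled WT, open HT), with a line at the group mean. Kcnj5 and Kcna5 sit highest in striatum, Kcnh7 and Kcnk4 highest in PFC, and HT and WT libraries of a region overlap.

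Auxiliary subunits differed between regions in opposite directions within one subfamily. Of the Kv beta genes, cytoplasmic partners of Kv1 channels, Kcnab1 was at 5686, 6482 and 7091 in striatum, 3396, 3547 and 3735 in hippocampus and 1823, 1987 and 2285 in PFC. Kcnab2 had the reverse order for striatum, at 4714, 5629 and 6161 against 14219, 15721 and 16403 in hippocampus and 10041, 10290 and 11207 in PFC. Neither gene's regions overlapped. The differences were -1.65 (SE 0.06, adjusted p = 1.35e-15) for Kcnab1 and 0.94 (SE 0.06) for Kcnab2 in PFC over striatum. Kcnab1 made up 38.6% ± 1.2 (SD, n = 6) of the per-kilobase Kv beta sum in striatum, 12.1% ± 0.595 in hippocampus and 9.39% ± 1.09 in PFC. The size of this share rests on the length used: with the longest coding transcript in place of all exons it was 54.8% ± 1.18, 20.6% ± 0.929 and 16.7% ± 1.78, and Kcnab1 then had a larger share in striatum than Kcnab2 (39.0%). Kcnip2, a calcium-binding partner of Kv4 channels, was lower in PFC, at 2664 to 3115 against 4244 to 4712 in hippocampus and 3615 to 4486 in striatum, and Kcnip3 was 0.71 and 0.73 higher in PFC. Kcnip1 was highest in striatum (-1.10, SE 0.07 for hippocampus over striatum and -0.48, SE 0.07 for PFC over striatum).

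Kcnmb4, the neuronal beta subunit of the BK channel, was at 1670, 1827 and 1905 in PFC, 847, 906 and 927 in hippocampus and 410, 503 and 634 in striatum, 3 ranges that did not overlap, and was 1.85 (SE 0.08) higher in PFC than in striatum. Kcnmb1, the smooth muscle beta subunit, was low and highest in striatum, at 84.9 to 128 against 16.3 to 41.1 in PFC. Kcne1l was likewise highest in striatum (118 to 178, against 41.7 to 70.7 in PFC).

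Kcne2, which the choroid plexus is known to express, moved with choroid plexus markers. It was at 0.87, 1.12 and 3.14 in WT PFC, 6.65, 204 and 345 in hippocampus and 129, 269 and 523 in striatum, with PFC below the other regions in every WT library (-5.83, SE 0.69 and -6.76, SE 0.69). With PFC near 0, the sizes of both differences depend on the 1 added before the log. In HT Kcne2 was 2.22 in 1 PFC library and 0 in the other 4, and 0 to 453 in striatum, so that those groups met at 0. All 9 choroid plexus markers were lower in WT PFC than in either other region (9 of 9 called), and their sum ranged over all libraries from 88.2 to 208 in PFC, 2352 to 89301 in hippocampus and 1707 to 92195 in striatum. Across libraries Kcne2 and the choroid plexus gene Ttr had a Spearman rank correlation of 0.991 in hippocampus (n = 11) and 0.993 in striatum (n = 12), given as a description. The part of choroid plexus tissue in the Kcne2 difference was not tested.

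Calcium- and sodium-activated channels split by subunit. Kcnt1, a sodium-activated channel, was at 4677, 5101 and 5375 in PFC, 1848, 1960 and 2126 in hippocampus and 4721, 5279 and 6037 in striatum. Hippocampus lay below both with no overlap, and PFC and striatum overlapped (1.36, SE 0.05, adjusted p = 2.96e-15 for PFC over hippocampus; -0.07, 95% interval -0.18 to 0.04, for PFC over striatum). Its paralogue Kcnt2 (chr1:140246158-140612067) had a different order, at 1127 to 1306 in PFC, 820 to 980 in hippocampus and 389 to 568 in striatum. Kcnma1, the BK channel, was 0.21 and 0.88 higher in PFC than in hippocampus and striatum.

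The SK genes, small-conductance calcium-activated channels that slow firing after spikes, exchanged places between regions. Kcnn3 was at 1809, 1917 and 2318 in striatum, 840, 893 and 1094 in hippocampus and 636, 681 and 851 in PFC, and Kcnn2 at 701, 800 and 860 in striatum, 1770, 2028 and 2180 in hippocampus and 1184, 1212 and 1439 in PFC. For Kcnn3 the striatal libraries were above all others, and for Kcnn2 they were below all others. Kcnn3 made up 54.7% ± 3.4 (SD, n = 6) of the per-kilobase SK sum in striatum, 20.0% ± 2.29 in hippocampus and 19.8% ± 1.96 in PFC, while the sum itself was 348 ± 14.4, 440 ± 15.7 and 339 ± 15.8. Kcnn2 made up 60.9% ± 3.76 of it in hippocampus, 49.5% ± 2.68 in PFC and 30.6% ± 2.31 in striatum. With the length of the longest coding transcript the Kcnn3 share was 71.5% ± 2.49, 33.3% ± 3.38 and 34.7% ± 2.81 in striatum, hippocampus and PFC. The sum was then 966 ± 62.9, 958 ± 31.1 and 702 ± 35.7, so that striatum lay near hippocampus and no longer near PFC.

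**Figure D3:**
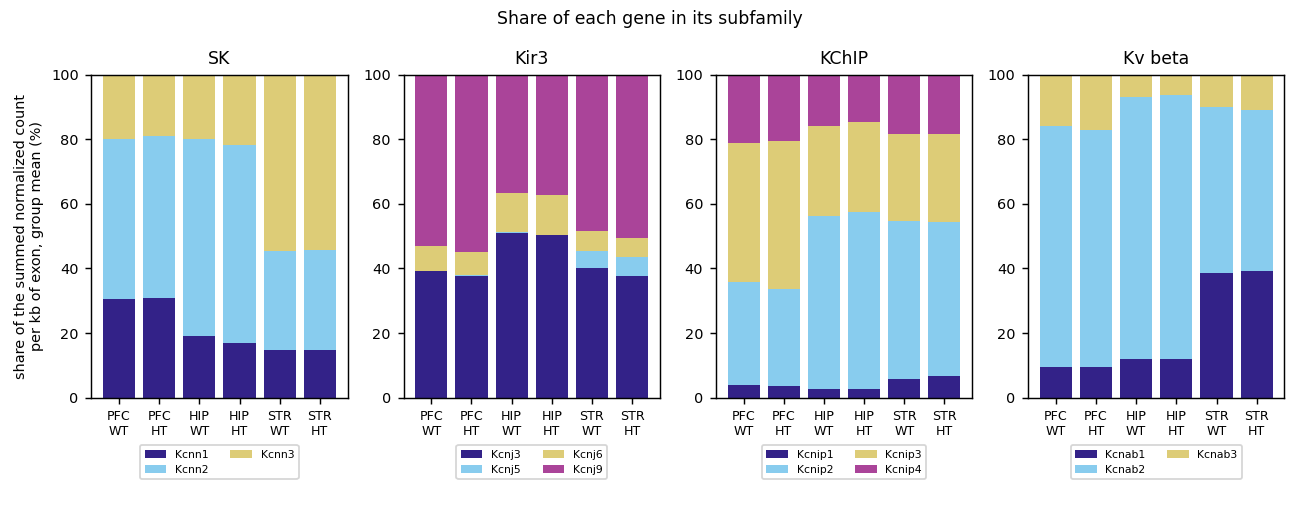
Share of each gene in the per-kilobase normalized count of its subfamily, as the mean of each region and genotype (5 or 6 libraries) in stacked bars that reach 100%. Kcnn3 takes 54.7% of the SK sum in WT striatum, and Kcnab1 38.6% of the Kv beta sum there.

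The G-protein-gated inward rectifiers (Kir3), which open downstream of many neurotransmitter receptors, were lower in striatum, Kcnj5 excepted. Kcnj5, the Kir3.4 subunit (chr9:32314707-32344350), was at 133, 161 and 223 in striatum, 2.7, 4.94 and 15.7 in PFC and 7.96, 11.9 and 15.5 in hippocampus, with striatum above every other library. The difference was -4.64 (SE 0.28, adjusted p = 4.92e-12) for PFC over striatum and -3.71 (SE 0.28) for hippocampus over striatum. Kcnj6 was lowest in striatum instead, at 246, 312 and 450 there, 884, 1147 and 1433 in PFC and 1251, 1411 and 1523 in hippocampus. It differed by 2.10 (SE 0.12) between hippocampus and striatum. Kcnj9 was at 4385 to 4714 in PFC, 2216 to 2528 in hippocampus and 1247 to 1725 in striatum, and Kcnj3 at 3697 to 4697, 3612 to 4352 and 1293 to 1726. The 4 genes' per-kilobase sum was 1978 ± 117 (SD, n = 6) in PFC, 1510 ± 75.8 in hippocampus and 699.8 ± 67.7 in striatum, and Kcnj5 made up 5.29% ± 1.51 of the striatal sum.

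Of the 4 Kir2 genes, strong rectifiers that hold the resting potential, Kcnj2, Kcnj4 and Kcnj12 were lowest in hippocampus, and Kcnj14 was called in no comparison. Kcnj2 was at 810 to 1045 in striatum, 496 to 805 in PFC and 264 to 377 in hippocampus, and Kcnj12 at 376 to 463 in PFC, 236 to 296 in striatum and 91.3 to 172 in hippocampus. Kcnj4, which made up 80.5% of the per-kilobase Kir2 sum in PFC, 81.7% in hippocampus and 76.1% in striatum, was 1.13 (SE 0.08) higher in PFC than in hippocampus. Kcnj10 (chr1:172341210-172374085), the Kir4.1 channel of astrocytes, was at 5765, 6418 and 6935 in PFC, 5193, 5403 and 6001 in hippocampus and 6390, 7908 and 8528 in striatum. It was higher in striatum than in PFC (-0.25, SE 0.06) and hippocampus (-0.46, SE 0.06), although PFC overlapped both. The summed level of 8 astrocyte markers was lowest in striatum, at a WT median of 117494 against 165466 in PFC and 151832 in hippocampus. That of 8 oligodendrocyte markers was highest there, at 246871 against 129514 and 159486, and the part of either cell type in the Kcnj10 difference was not tested. Kcnj11, the pore of the ATP-sensitive channel, was 0.63 (SE 0.07) higher in PFC than in striatum.

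Of the 10 two-pore genes, which carry background current, 8 were higher in PFC than in hippocampus and 6 higher in PFC than in striatum. Of all genes tested, 22.7% and 27.7% were, and most of the potassium channel genes were higher in PFC in both comparisons. Kcnk4, a channel opened by stretch and lipids (TRAAK; chr19:6923966-6934515), was at 607, 701 and 748 in PFC, 248, 282 and 322 in hippocampus and 53.4, 82.5 and 157 in striatum, 3 ranges that did not overlap. The difference was 1.28 (SE 0.16) for PFC over hippocampus and 2.99 (SE 0.16, adjusted p = 1.36e-12) for PFC over striatum, a 7.93-fold gap. Kcnk2, the related TREK1 channel, had the reverse order for striatum, at 1814 to 2385 against 1252 to 1423 in PFC and 1074 to 1251 in hippocampus. Kcnk9, an acid-sensitive channel, was at 4767 to 5619, 3091 to 3498 and 2372 to 2718 in PFC, hippocampus and striatum. Kcnk3 was 1.12 higher in PFC than in hippocampus, Kcnk12 was 1.27 higher in PFC than in striatum, and Kcnk13 was highest in striatum, at 196 to 243 against 133 to 180 in PFC.

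The remaining genes can be given by their WT ranges in PFC, hippocampus and striatum, in that order. Kcnh6, an ERG subunit of low level, was lowest in hippocampus, at 45.4 to 75.6, 19.5 to 30.8 and 53.3 to 93.8. Kcnab3, a Kv beta subunit, Kcnq5, an M-current subunit, and Kcnn1, an SK subunit, were highest in PFC and lowest in striatum: Kcnab3 at 1110 to 1250, 626 to 746 and 436 to 742, Kcnq5 at 3516 to 4035, 2368 to 2887 and 1741 to 2772, and Kcnn1 at 431 to 556, 334 to 423 and 175 to 299. Each of these 3 genes was called in all 3 comparisons. Kcng1, a silent subunit, was lowest in striatum, at 967 to 1110, 1013 to 1279 and 549 to 763, and Kcnk10, a stretch-sensitive two-pore channel, was highest in hippocampus, at 161 to 270, 228 to 357 and 146 to 250. Called as higher in PFC than in striatum, by the log2 difference given, were also Kcnk1 (0.36), Kcnip4 (0.28), Kcnj16 (0.25), Kcnk6 (0.29), Kcnu1 (0.58) and Kcng4 (0.98). Of the genes called in no comparison, Kcns2 was the most abundant, at 806 to 994, 880 to 1091 and 896 to 1043, and Kcnrg had among the lowest levels, at 3 to 27.7, 7.47 to 29.5 and 5.4 to 14.1.

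Per kilobase of exon, the leading genes were Kcnab2 (1888 ± 94.0 in PFC), Kcnk1, Kcnj4, Kcnj10 and Kcnip3 in PFC. In hippocampus Kcnab2 (2784), Kcnip2, Kcnk1 and Kcnj10 were among them, and in striatum Kcnj10 (1418), Kcnip2, Kcnk1, Kcnab2 and Kcnj4. With the length of the longest coding transcript in place of all exons the order changed, and Kcnab1 led in striatum at 1972.

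Genes outside the Kcn family that bind or scaffold these channels were looked up from a list of 34, of which 32 were tested. Of these, 27 were called between PFC and hippocampus (20 higher in PFC), 28 between PFC and striatum (19 higher in PFC) and 23 between hippocampus and striatum (12 higher in hippocampus). Of all genes, 46.3% (22.7% higher in PFC), 56.6% (27.7%) and 47.5% (23.6% higher in hippocampus) were called in these comparisons. Dpp10, a Kv4 auxiliary subunit, was 1.92 (SE 0.07) higher in PFC than in hippocampus, where the related Dpp6 was lower (-0.69, SE 0.04). Abcc8, the sulfonylurea receptor that joins Kcnj11, was 0.98 (SE 0.07) higher in PFC than in striatum, in the direction of Kcnj11. Cntnap2, which gathers Kv1 channels on axons, was lower in PFC than in striatum (-0.97, SE 0.06).

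Some striatal levels moved with the cortical marker sum across the 12 striatal libraries, which is given as a description with no test. The Spearman rank correlation with that sum was 0.90 for Kcnh7 and Kcnv1, 0.83 for Kcnj6 and 0.64 for Kcnk4, against -0.85 for Kcnj5, -0.89 for Kcne1l and 0.32 for Kcna5. Over the 16 genes looked at, it was above 0 for 7 of 8 genes higher in PFC, Kcns3 being at -0.12, and below 0 for 6 of 8 genes higher in striatum, with Kcnh8 at -0.24 and Kcnab1 at 0.55. Without the 5 striatal libraries of high cortical markers, 62 potassium channel genes were called between PFC and striatum in WT and 61 between hippocampus and striatum, 28 and 26 of them at 2-fold or more. In HT the counts without those libraries were 60 and 59. The shares of all genes called without those libraries are not given here. A change in these counts is therefore not read as particular to potassium channel genes. The marker sum was also high in hippocampus, and the part of cortical tissue in the striatal levels was not tested.

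**Figure D4:**
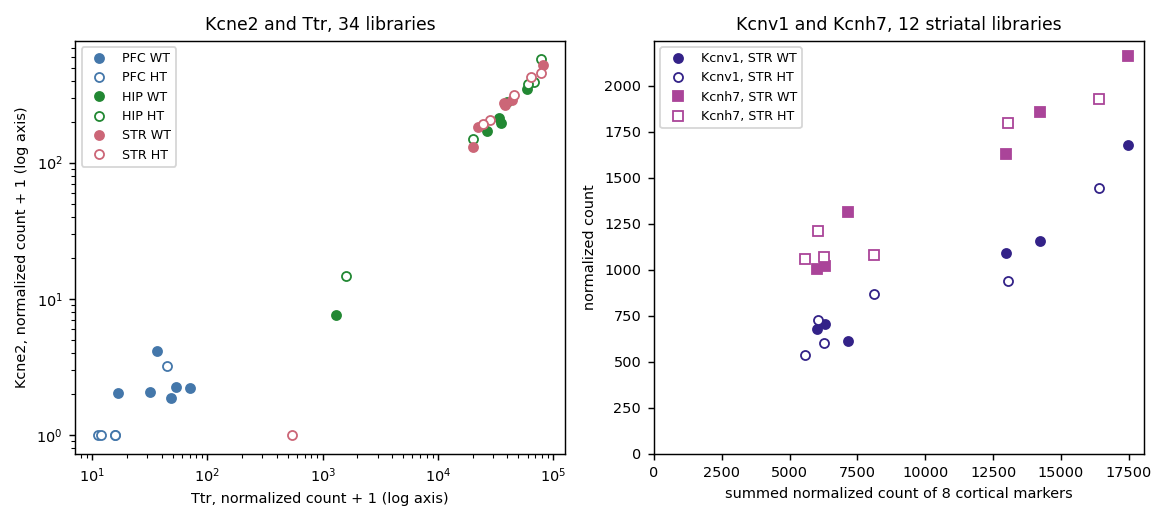
Left, Kcne2 against Ttr in the 34 libraries (normalized count + 1, log axes, coloured by region); right, Kcnv1 and Kcnh7 against the summed normalized count of 8 cortical markers in the 12 striatal libraries (filled WT, open HT). Kcne2 follows the choroid plexus marker Ttr, and Kcnh7 and Kcnv1 in striatum are higher where the cortical marker sum is higher.

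Between HT and WT libraries no potassium channel gene was called in any region. The counts were 0 of 77 in PFC, 0 of 80 in hippocampus and 0 of 78 in striatum by limma, where 0% of all genes were called in each. At an unadjusted p under 0.05 there were 4 genes in PFC (2 higher, 2 lower in HT), 8 in hippocampus (3 higher, 5 lower) and 4 in striatum (all lower), against 5%, 6.81% and 5.89% of all genes. For no potassium channel gene did the HT and WT libraries of a region lie apart without overlap (0.46%, 0.68% and 0.4% of all genes did). The smallest adjusted p was 0.977, 0.408 and 0.793 by limma. The codes in the column names begin with 31, 35 or 37 (5, 23 and 6 libraries), and with the 23 libraries of code 35 alone, or with this number as a covariate, 0 genes were called in each region. The 95% interval of the difference lay within 2-fold either way for 75 of 77, 76 of 80 and 75 of 78 genes, and its median half-width was 0.15, 0.18 and 0.23.

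**Figure D5:**
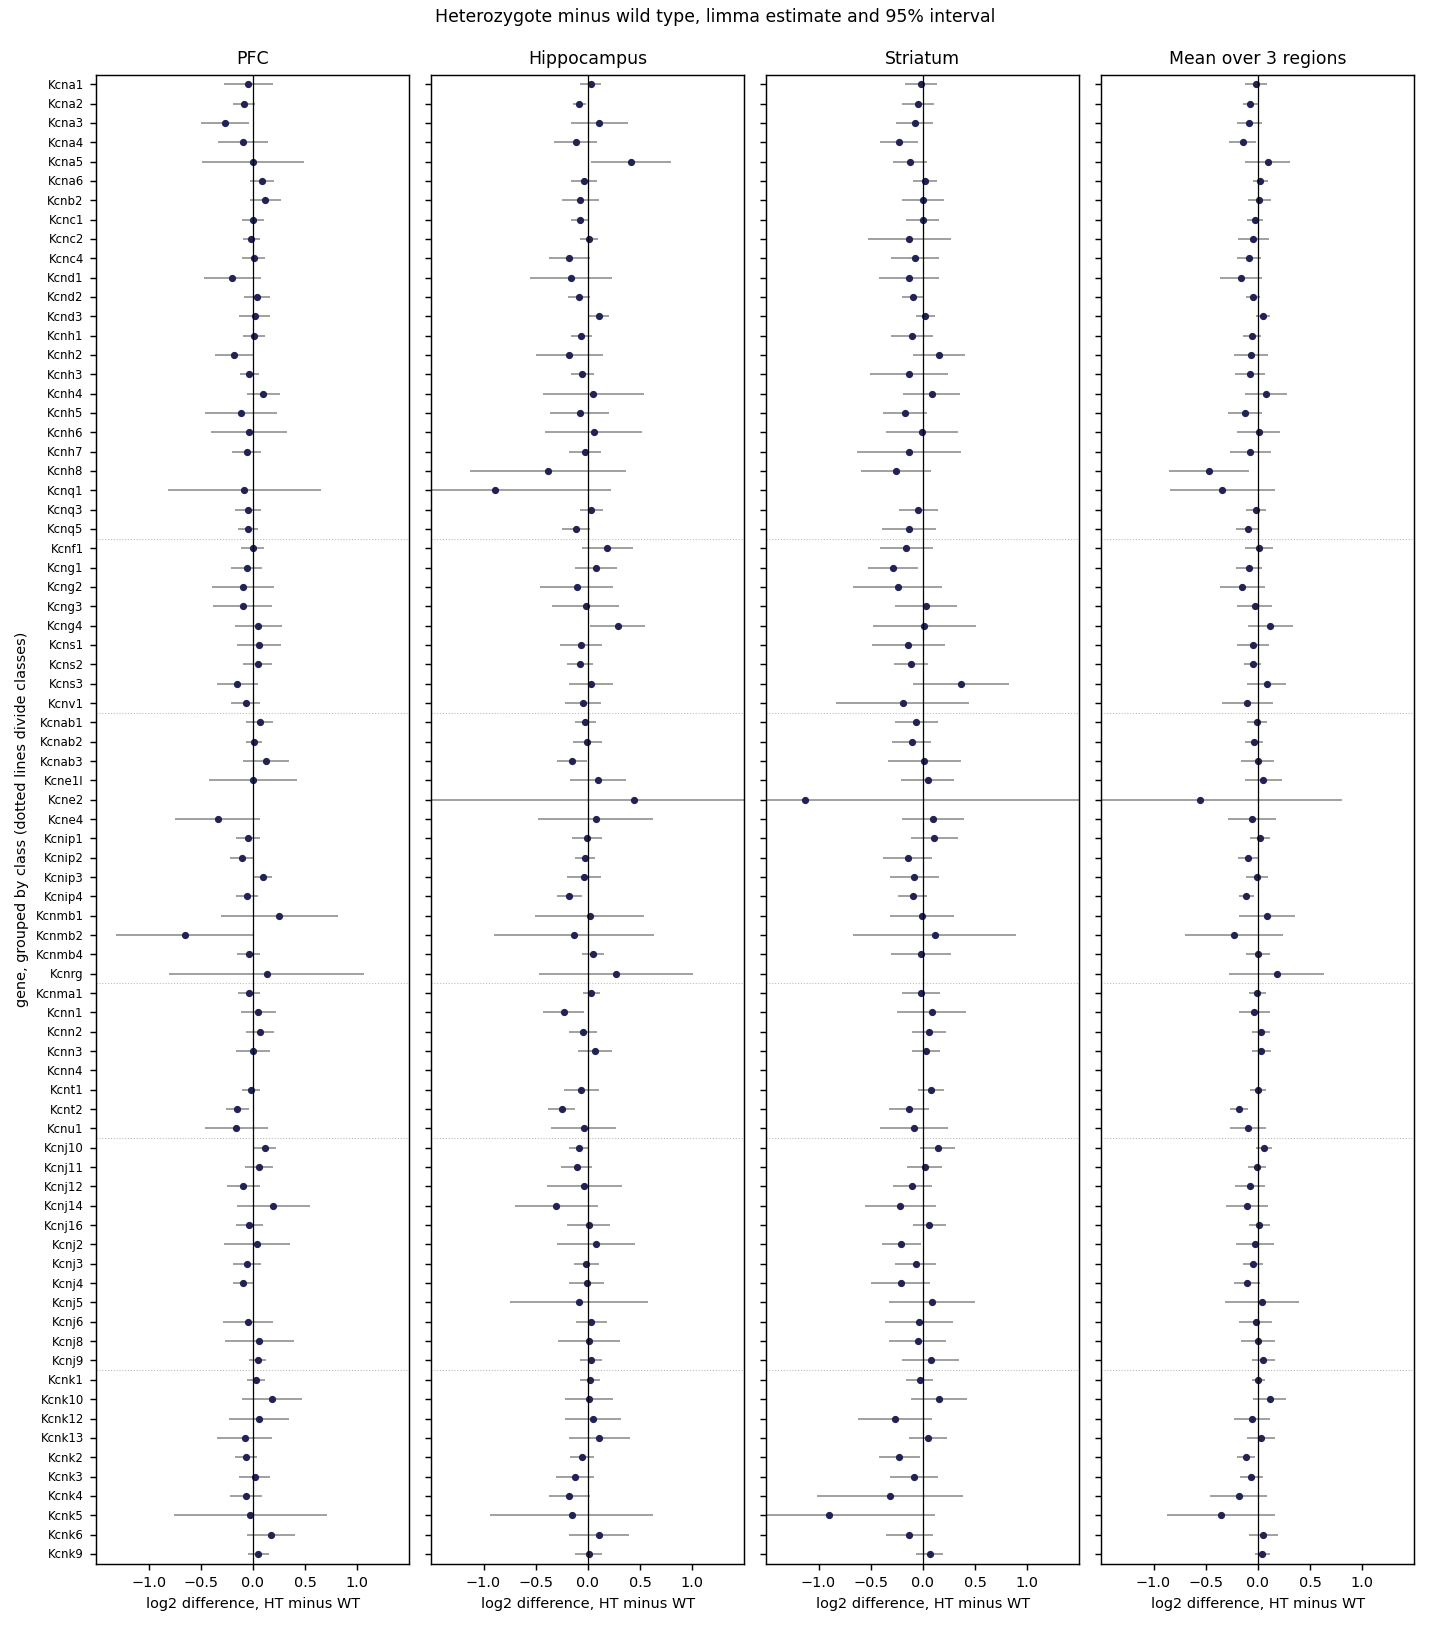
Log2 difference of HT over WT for the genes described here (points) with the 95% interval from limma (lines), by region and averaged over the 3 regions; the axis ends at 1.5 either way and cuts longer intervals. In each region the differences lie on both sides of 0, and none passed the threshold.

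In PFC 36 of 77 genes were above 0 in HT (48.7% of all genes), and in hippocampus 32 of 80 (49.4%). In PFC, Kcnj10 was at 7224, 6702, 7459, 6695 and 6678 in HT and at 5765, 6418 and 6935 (lowest, median, highest) in WT. The groups overlapped, with all 5 HT libraries above the WT mean (0.12, SE 0.05, adjusted p = 0.977 by limma). Kcnt2 was at 1024, 1145, 1139, 1183 and 1101 in HT and at 1127, 1257 and 1306 in WT, with 5 of 5 HT libraries below the WT mean (-0.15, SE 0.05). Kcna3 was at 145 to 174 in HT against 170 to 234 in WT (-0.27, SE 0.11), and Kcnmb2 at 50.6 to 75.4 against 57.1 to 196 (-0.66, SE 0.31). Kcnip3 and Kcnb2 stood on the higher side, by 0.09 and 0.12.

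In hippocampus Kcnt2 had the smallest p of the 80 genes. It was at 822, 708, 751, 725 and 713 in HT and at 820, 880 and 980 in WT, so that 1 HT library reached the lowest WT one and the other 4 lay below all of them (-0.25, SE 0.06, adjusted p = 0.408 by limma). The HT library at 822 carries the code 31-67M, and without that code the difference was -0.29 with an adjusted p of 0.196. Kcnip4, a Kv4 partner, was at 1262, 1116, 1202, 1399 and 1153 in HT and at 1323, 1371 and 1463 in WT (-0.18, SE 0.06, adjusted p = 0.667). Kcnd3, a Kv4 subunit, was on the higher side at 3198, 3631, 3141, 3117 and 3169 against 2918, 2964 and 3203 (0.11, SE 0.04), and Kcna5 and Kcng4 stood 0.41 and 0.29 above WT. Kcna2 was at 6083 to 6469 in HT against 6419 to 6732 in WT. All of these groups overlapped.

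In striatum the differences lay mostly below 0. Of 78 genes tested, 25 were above 0, against 48.4% of all genes. By class, 5 of 27 voltage-gated alpha subunits, 3 of 9 silent subunits, 3 of 10 two-pore and 5 of 12 inward rectifier genes were above 0. So were 5 of 13 auxiliary genes and 4 of 7 genes grouped here as calcium- and sodium-activated, a group in which Kcnu1 was placed with its relatives. No difference between classes was tested. The median was -0.06 for the 78 genes and -0.0038 for all genes. Kcna4 was at 676, 898 and 940 in HT (lowest, median, highest of 6) and 920, 971 and 1032 in WT, with 6 of 6 HT libraries below the WT mean and overlapping groups (-0.23, SE 0.08, adjusted p = 0.793 by limma). Kcng1 was at 424, 515 and 678 against 549, 640 and 763 (-0.28, SE 0.11), and Kcnk2 at 1539, 1882 and 2199 against 1814, 2218 and 2385 (-0.22, SE 0.09). Kcns3, Kcnj10 and Kcnt1 stood on the higher side, by 0.37 (SE 0.22), 0.14 (SE 0.08) and 0.08 (SE 0.06). Without the 5 striatal libraries of high cortical markers, 23 of 78 genes were above 0, against 47.8% of all genes. With equal library totals, 29 of 78 were, and the share of all genes above 0 under that scaling was not computed. Of the 8 cortical and the 10 striatal projection neuron markers, 1 each was above 0, and the part of either in these differences was not tested.

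Averaged over the 3 regions, 0 of 80 genes were called, where 0.0938% of all genes were (16 of 17051). Kcnt2 came nearest: it was below the WT mean of its region in 16 of 16 HT libraries, which carry 6 codes and may not be separate animals, with a mean difference of -0.18 (SE 0.04, 95% interval -0.26 to -0.09, adjusted p = 0.0938 by limma). The count of 16 comes from the same values as the p-value by which Kcnt2 was picked, so it adds no support. How many of all genes had every HT library on the same side was not computed. In striatum alone Kcnt2 was at 388, 443 and 477 in HT and 389, 468 and 568 in WT (-0.13, SE 0.09). Without the striatal WT library of replicate 6 the mean difference was -0.20 with an adjusted p of 0.0284, the only leave-out of 1 library that brought a call, and without the 5 striatal libraries of high cortical markers it was -0.14 with an adjusted p of 0.225. Kcnip4 (-0.11, adjusted p = 0.263) and Kcnk2 (-0.12, adjusted p = 0.35) followed on the lower side, and Kcnd3 (0.05), Kcnj10 (0.06) and Kcnk10 (0.11) had the smallest p-values on the higher side, none passing. Of the 6 genes with an unadjusted p under 0.05 (9.37% of all genes), all were lower in HT: Kcnt2, Kcnip4, Kcnk2, Kcnh8, Kcna4 and Kcna2. Of all 80 genes, 27 were above 0, against 48.1% of all genes.

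The genotype difference itself was compared between regions, with 0 of 80 genes called by limma in each of the 3 comparisons (0% of all genes). At an unadjusted p under 0.05 there were 3 genes for PFC against hippocampus, 1 for PFC against striatum and 4 for hippocampus against striatum, against 3.76%, 3.59% and 3.69% of all genes. Kcnj10 had a difference of 0.12 in PFC, -0.09 in hippocampus and 0.14 in striatum, and the gap between PFC and hippocampus was 0.21 (SE 0.09, adjusted p = 1 by limma) and that between hippocampus and striatum -0.23 (SE 0.09). Kcna3 differed by -0.38 (SE 0.14) between PFC and hippocampus, and Kcns3 and Kcnk6 by -0.52 (SE 0.22) and 0.30 (SE 0.16) between PFC and striatum. Kcng1, with one of the smallest p-values between hippocampus and striatum, differed by 0.36 (SE 0.14, adjusted p = 1). None of the 32 tested partner genes was called between HT and WT in any region.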

How the data were processed

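The deposited table holds 1 signal value per gene and library, a read count that the authors divided by a scaling factor, per the file name's mention of DESeq counts; the values are not whole numbers, so the edgeR test written for raw counts was not used. The submitters' processing notes list DESeq2 1.26.0, Salmon 1.1.0, GRCm38 and R 3.6.2, with no role or order. Library totals were 25786041 to 29798959, and the depth before scaling is unknown, so no counting interval is given. Of 18548 identifiers, 18533 matched GENCODE M21. Every row reaches at least 10.2 in some library.

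Values were taken as log2(value + 1), and genes with a mean of at least 10 were fitted with limma 3.58.1 in R 4.3.3 (empirical Bayes with trend and robust options), 2-sided, adjusted by Benjamini-Hochberg over all genes tested. Regions were compared within each genotype, genotypes within each region, and the genotype difference between regions in 1 model of 34 libraries. The mean over regions had the code in the column names as a random block (correlation 0.0429). Summaries used pandas 2.3.3, scipy 1.17.1 and numpy 2.4.6 under python 3.11.15. The fits were tested on simulated data.

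Named genes were, of those called, up to 8 per direction and pair of regions by size of difference (with a mean of at least 50 in the higher region), the 5 highest per kilobase in each region, the highest of each subfamily, and those with the smallest p between genotypes (3 per direction within a region and over regions, 2 between regions); others were named to describe their subfamily. Some genes that enter the counts are not reported here. The genes, lists and tests were chosen with earlier results of these data known. Alternatives were another pseudocount, filter, scaling, code covariate, replicate block, leaving out each library, and 3 chosen after seeing the data: for shares and per-kilobase sums the length of the longest coding transcript, and leaving out the code 31-67M or the striatal libraries with a cortical marker sum over 10000.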

Additional observations from a re-analysis of the deposited data

Results flagged for a closer look

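Within a group of 5 or 6 libraries, 26 of 306 sets of values had 1 library far from the rest by Dixon's test at the 95% level (8.5%, for 51 named genes). About 1 in 20 would be flagged for independent values with a normal spread. The test was run without a log, genes of 1 library are not independent, and the share over all genes was not computed. The flagged share is therefore not read as an excess. In hippocampal HT replicate 2, 5 genes stood above the other 4 HT libraries: Kcnf1 at 2819 (next 1955), Kcnh4 at 172 (next 80.0), Kcnv1 at 1174 (next 944), Kcnd3 at 3631 (next 3198) and Kcnn3 at 1152 (next 953). In hippocampal WT replicate 2, Kcnj12 at 172, Kcnk2 at 1251, Kcnn3 at 1094 and Kcnrg at 29.5 were above the group. In PFC WT replicate 6, which carries the code 31-67M, Kcng4 at 286, Kcnj5 at 15.7 and Kcne2 at 3.14 were above the other 5 WT libraries.

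Kcnmb2 had a high library in 3 groups: hippocampal HT replicate 5 at 218 (next 78.6), striatal HT replicate 2 at 197 (next 66.2) and striatal WT replicate 6 at 134 (next 76.7). Striatal HT replicate 1, with a cortical marker sum of 16411, was high in Kcnf1 at 2441 and Kcnmb4 at 699.8. Of the other single values, Kcng2 was high at 618 in hippocampal HT replicate 5, Kcnh6 at 93.8 in striatal WT replicate 4 and Kcnk6 at 187 in striatal WT replicate 6. In PFC, Kcnip2 was high at 3115 in WT replicate 4, Kcnn3 at 851 and Kcnrg at 27.7 in WT replicate 3, and Kcne2 at 2.22 in HT replicate 1, where the other 4 were at 0. On the low side were Kcna2 at 6419 in hippocampal WT replicate 3 and Kcnj5 at 5.6 in hippocampal HT replicate 1.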

How the results depend on the processing

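Over the planned settings, the counts of potassium channel genes called between regions stayed within 1.5 times the reported ones. Leaving out 1 library at a time gave 59 to 65 (PFC and hippocampus), 62 to 65 (PFC and striatum) and 55 to 59 (hippocampus and striatum) in WT, and 52 to 58, 60 to 63 and 52 to 57 in HT. Between genotypes 0 genes were called within each region and between regions under every setting run. Over regions the count was 0 to 1 on leaving out 1 library: without striatal WT replicate 6, 1 gene (Kcnt2) was called, and the cause was not tested. No value changed direction past the threshold. Leaving out the code 31-67M, chosen after seeing the data, gave 63, 63 and 57 in WT. The depth before scaling is unknown, and the spread between libraries limits what genotype differences could be seen.

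Neither replicate numbers nor codes met the condition for pairing, a correlation over 0.1 in every pair. Same-numbered HT and WT libraries correlated in their deviations at -0.098 to 0.101, with 1 of 16 over 0.1, and libraries of different regions at -0.082 to 0.296, with 4 of 33 over 0.1. Libraries of different regions that share a code correlated at -0.033 to 0.296, with 6 of 30 over 0.1 and 26 of 30 above 0. A random block on the code gave, between regions, 65, 64 and 57 in WT and 57, 63 and 54 in HT, and 0 for the genotype difference between regions. With a replicate block the counts between regions were 62, 65 and 59 in WT and 59, 61 and 55 in HT, and 0 for every genotype comparison.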
